A study of Rattus norvegicus with 18 samples.

Results

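The 200 genes described here were those whose transcript levels differed most between individual healthy rat retinae. They were chosen from the deposited FPKM table (fragments per kilobase of transcript, scaled to library size) of 32623 rows. A row was eligible when its mean over the 6 non-diabetic libraries was at least 1 FPKM, which 13910 rows reached, and the 200 rows of highest mean (235.6 FPKM or more) were left out. Of the remaining 13710 candidate rows, the 200 with the largest standard deviation (SD) of log2(FPKM + 1) over the 6 non-diabetic libraries were taken, which is 1.46% of them. The spread among non-diabetic animals therefore chose the members and is given as a description only.

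Whole retinae of 18 male Wistar rats were sequenced, 6 per group and 1 library per animal. The diabetic control group (DC) had received streptozotocin at 35 mg/kg at 8 weeks of age, was counted as diabetic above a blood glucose of 14 mmol/L, and received placebo. The DC + Lixi group had the same diabetes and received lixisenatide at 150 µg/kg on 5 days a week. The non-diabetic control group (NC) received placebo, and all animals were studied after 12 weeks. Streptozotocin kills insulin-producing beta cells, so the model is one of insulin loss, and lixisenatide is an agonist of the receptor for the gut hormone GLP-1. Nothing in the sources used here ties an animal of one group to an animal of another, and animals are named below by their number.

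The retina is a layered neural tissue of photoreceptors, interneurons, ganglion cells, glia and vessels. A transcript level in whole retina can differ between animals because animals of an outbred stock such as Wistar carry different alleles or gene copies, because a gene responds to the time of day, light or handling, or because a dissection takes along other tissue of the eye. These are general properties of such samples and were not tested here. In whole tissue, fewer cells of a type and less RNA per cell cannot be told apart. The deposited tables identify genes by Ensembl number, and the files do not pair these with gene names: 0 of the 32623 numbers matched the reference table used here. The members are therefore described by number and by their measured behaviour, without names, functions, positions or sequences. The identity of the tissue could not be checked against marker genes for the same reason.

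The libraries held 28311638 to 39131627 estimated counts in genes, so depth differed little between them. RNA integrity numbers were 9.2 to 9.5 in DC, 8.4 to 9.4 in DC + Lixi and 8.6 to 8.9 in NC, so DC and NC did not overlap. RNA concentration was 485.76 to 595.52 ng/µl in DC, 396.96 to 745.04 ng/µl in DC + Lixi and 212.16 to 541.04 ng/µl in NC, with the lowest values of all animals in NC 431, 432 and 433. Any difference between DC and NC below cannot be told apart from this difference in RNA integrity.

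The members were mostly genes of low level. Their median level over the NC animals was 3.58 FPKM, against 12.2 FPKM over all candidates, and 63% of members lay under 5 FPKM, against 26.6% of candidates. They were also short. The transcript length implied by the ratio of count to FPKM was a median 0.385 times that of the median candidate (quartiles 0.159 and 0.840), against quartiles of 0.634 and 1.56 for the candidates. The NC SD of members was a median 8.89 times the SD expected from counting, against 2.19 times for candidates. Of the 200 members, 186 exceeded 2 times, as did 7708 of the 13710 candidates. The members were chosen on that NC SD, so a high ratio follows in part from the rule. The spread in the diabetic groups was not set against counting error. By depth, 106 members had a mean of at least 100 counts over the NC libraries, 58 had 20 to 100 and 36 had fewer than 20.

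Among the NC animals, 17 members were listed at 0 FPKM in at least 1 retina. In the other 183 the highest retina held a median 10.4 times the FPKM of the lowest, the smallest such ratio was 2.47, and in 97 of them it was at least 10. The 3 members just inside the limit of rank 200 were ENSRNOG00000047706, ENSRNOG00000060413 and ENSRNOG00000049751, and the 3 rows just outside it were ENSRNOG00000014648, ENSRNOG00000058220 and ENSRNOG00000011250. Their NC SDs were 0.626 for the first and 0.622 and 0.621 for the last 2 of these 6 genes, and the 3 between agreed to 3 decimals, so the limit fell in a continuous range. No single animal accounted for the list. The NC retina farthest from the median of its group was animal 437 for 42 members (33 of them below the median), 433 for 41 (24 above), 439 for 34, 432 for 32, 431 for 30 and 438 for 21. When that animal was left out for each member, the median NC SD over members was 0.59 and 87 of 200 stayed at or above the limit.

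The same genes also varied among diabetic animals, which the rule did not use. The median SD over members was 0.66 in DC (jackknife SE 0.0585 over the 6 animals) and 0.69 in DC + Lixi (SE 0.0515), beside 0.83 in NC. Over all candidates the median was 0.11 in DC, 0.10 in DC + Lixi and 0.10 in NC. In DC 176 members (88%) lay above the 90th percentile of candidates, and in DC + Lixi 181 (90.5%) did. When the same rule was applied to each diabetic group, 102 members (51% of each list) were also among the 200 most variable of DC and 102 (51%) among those of DC + Lixi. All 3 lists shared 70 genes, and 66 members were in neither diabetic list. The DC list and the DC + Lixi list shared 103 genes. The figures depend on how spread is measured. The median absolute deviation gives a lone animal little weight, and with it 200 genes were chosen anew in NC. Of that new list, 57 were shared with the DC list and 67 with the DC + Lixi list by the same measure. Its median spread was 0.25 in DC and 0.33 in DC + Lixi, against 0.06 for candidates in either group. With a pseudocount of 0.1 in place of 1, again with genes chosen anew, the median SD was 1.23 in DC and 1.23 in DC + Lixi. Of the 200 members themselves, at a pseudocount of 1, only 6 in DC and 3 in DC + Lixi had an SD below the candidates' median.

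**Figure D1:**
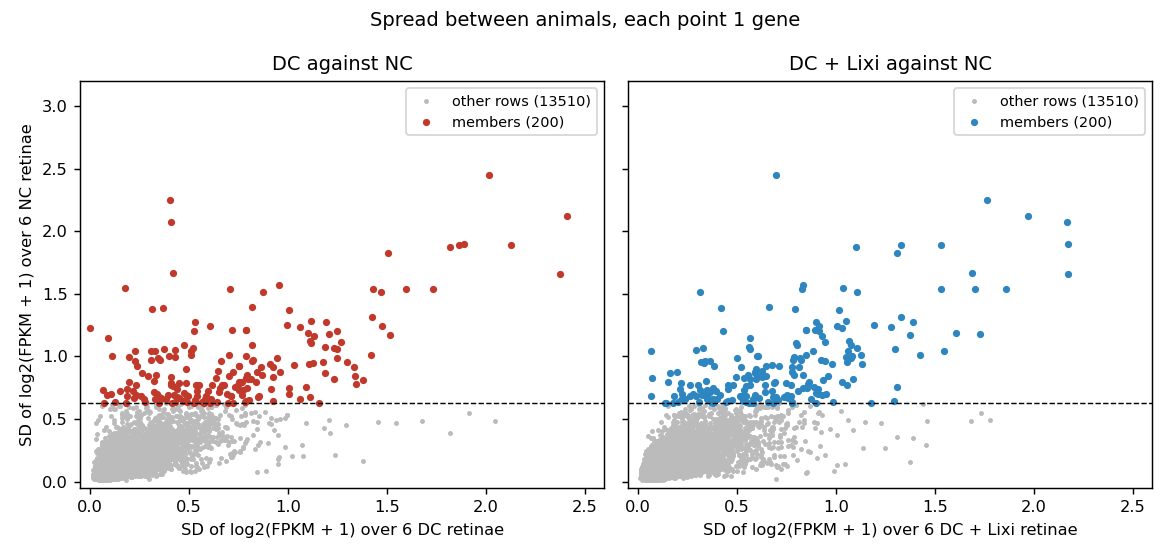
SD of log2(FPKM + 1) over 6 DC retinae (left, x axis) or 6 DC + Lixi retinae (right, x axis) against that over 6 NC retinae (y axis), 1 point per gene, members coloured, other candidate rows grey and the limit of the rule dashed. Members lie above the line by construction, and most of them lie to the right of the grey cloud as well, at median SDs of 0.66 in DC and 0.69 in DC + Lixi.

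Some members fell into 2 classes that were told apart by eye and then counted with fixed limits, while 101 of the 200 belonged to neither. The classes were chosen after their values were seen and carry no test. The first class were genes that were either on or off. Such a gene was under 10% of its highest FPKM in at least 2 of the 18 retinae and at 25% or more in all the others, with nothing between. This held for 24 members (12%), against 43 of all candidates (0.314%). The 24 were 55.8% of the candidates of this kind, and all of them were off in at least 1 NC retina. Such a gene has a large NC SD, so the rule favours it and the contrast of these shares is description only. The number depends on the limits, and was 9 when on values had to reach 40% of the highest. The off state was not confined to a group: 23 of the 24 were off in at least 1 diabetic animal, 14 were off in animals of all 3 groups, and 23 were on in animals of all 3 groups. Over the 24 genes, 34.7% of values were off in DC, 25.7% in DC + Lixi and 36.1% in NC. The number of retinae off per gene was 2 to 14. In 16 of the 24 the retinae that were on held at least 100 counts on average, so most of these genes were not near the detection limit. Among the 20 that could be tested, the smallest adjusted p (edgeR) was 0.136 for DC against NC, 0.29 for DC + Lixi against NC and 0.413 for DC + Lixi against DC.

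ENSRNOG00000018167, second in the list with an NC SD of 2.25, was off in DC + Lixi 403 at 0.478 FPKM and in NC 431 and 433 at 0.369 and 0.274 FPKM. It was on in every other retina, at 18.5 to 43.9 FPKM in DC, 17.1 to 41.1 FPKM in the other DC + Lixi animals and 19.95 to 36.4 FPKM in the other NC animals. No retina lay between these ranges. ENSRNOG00000029262 and ENSRNOG00000027271, members of rank 4 and 10, switched in the same animals. ENSRNOG00000029262 was off in DC + Lixi 403 and 428 (0.149 and 0.206 FPKM) and in NC 431, 438 and 439 (0.2996, 0.438 and 0.863 FPKM). It was on at 17.9 to 41.8 FPKM in all 6 DC animals. ENSRNOG00000027271 was off in the same 5 animals at 0.188 to 0.346 FPKM and on at 9.79 to 21.999 FPKM in DC. The highest retina was DC 390 for either gene, at 41.8 and 21.999 FPKM, while the remaining on values did not exceed 23.1 and 11.7 FPKM. These genes thus had 3 levels, with DC 390 alone at the upper one.

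A gene with 3 levels and more animals at each was ENSRNOG00000033517 (rank 11, chosen after its values were seen). DC 396 and 407 and DC + Lixi 428 held 77.0, 80.5 and 88.1 FPKM. A middle level of 30.2 to 45.0 FPKM was found in DC 386 and 430, in DC + Lixi 388, 401 and 403 and in NC 438. The remaining 9 retinae, among them 5 of 6 in NC, held 1.03 to 2.16 FPKM. The 3 levels did not overlap and each of the diabetic groups had animals at all of them. Its SD was 2.38 in DC, 2.18 in DC + Lixi and 1.66 in NC.

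ENSRNOG00000060344 (rank 5) held 5.77 to 16.0 FPKM in 4 DC animals, 9.91 to 19.8 FPKM in 3 DC + Lixi animals and 8.56 to 17.7 FPKM in 4 NC animals, and at most 0.0428 FPKM in the other 7 retinae. ENSRNOG00000046615 (rank 9) was above 6 FPKM in DC 425 and 430, DC + Lixi 403 and NC 431 and 432, and practically 0 in the other 13. It rested on little depth, since its highest NC library held 39.1 counts.

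For some members, another row of the table was higher in the retinae where the member was off. Rows were compared for FPKM values that were equal to 4 decimals at 1 FPKM or more, a comparison added after the data had been seen. At least 3 libraries with equal values were found for 21 members (10.5%), against 0.912% of candidates. Near-identical gene copies can share reads in this way, which could not be checked without sequences, so the level of each of these members is uncertain. ENSRNOG00000048613 and ENSRNOG00000025156 (chosen after their values were seen) were equal in 14 of 18 retinae, at 4.77 to 6.80 FPKM. In DC 407, DC + Lixi 403, NC 432 and NC 438 ENSRNOG00000048613 was off at 0.339, 0.263, 0.0947 and 0.201 FPKM, and ENSRNOG00000025156 held 15.5, 14.4, 11.4 and 12.8 FPKM there. The sum of the pair was 9.54 to 15.8 FPKM over all 18 retinae, and its SD over NC was 0.081, against 1.37 for ENSRNOG00000048613 alone.

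ENSRNOG00000047627 (rank 157) and ENSRNOG00000048116 showed the same exchange. ENSRNOG00000047627 was off in DC 396, 407 and 425 at 0.098, 0.155 and 0.127 FPKM and in NC 433 at 0.258 FPKM, where ENSRNOG00000048116 held 5.22, 5.43, 5.78 and 6.17 FPKM. In the other 14 retinae the rows were equal at 2.10 to 3.21 FPKM, and the sum was 4.203 to 6.43 FPKM throughout. ENSRNOG00000051390 and ENSRNOG00000057986, both members and both on/off, were equal in 10 retinae. In NC 437 and 438 both were on at unequal levels, and in the other 6 retinae only 1 of them was on. In DC 386 they held 0.309 and 10.06 FPKM, in DC 407 they held 7.89 and 0.0964 FPKM, and their sum was 7.22 to 11.8 FPKM over all animals.

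The 21 members formed 17 families of such rows (39 rows in all). The family sum had a median SD of 0.16 in DC, 0.14 in DC + Lixi and 0.22 in NC, against 0.99, 0.92 and 0.99 for the most variable member of each family. In 15 of the 17 families, with 17 members, the sum fell below the limit of the rule, and in 11 it fell below the 90th percentile of candidates (0.254). Members were chosen for a large NC SD, so a lower NC SD of the family sum follows in part from the rule. The same holds for the sum of ENSRNOG00000048613 and its partner. The sum varied less between animals than the most variable member of its family in 15 of 17 families in DC, 12 in DC + Lixi and 16 in NC. The remaining on/off genes need not share this: 7 of the 24 had a partner row by this comparison, and ENSRNOG00000018167, ENSRNOG00000029262, ENSRNOG00000027271 and ENSRNOG00000033517 had none. Counts that are not whole numbers made up 56.6% of the members' counts above 0, against 24.6% for candidates, and 63.9% for the on/off members. The source of these counts was not tested.

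**Figure D2:**
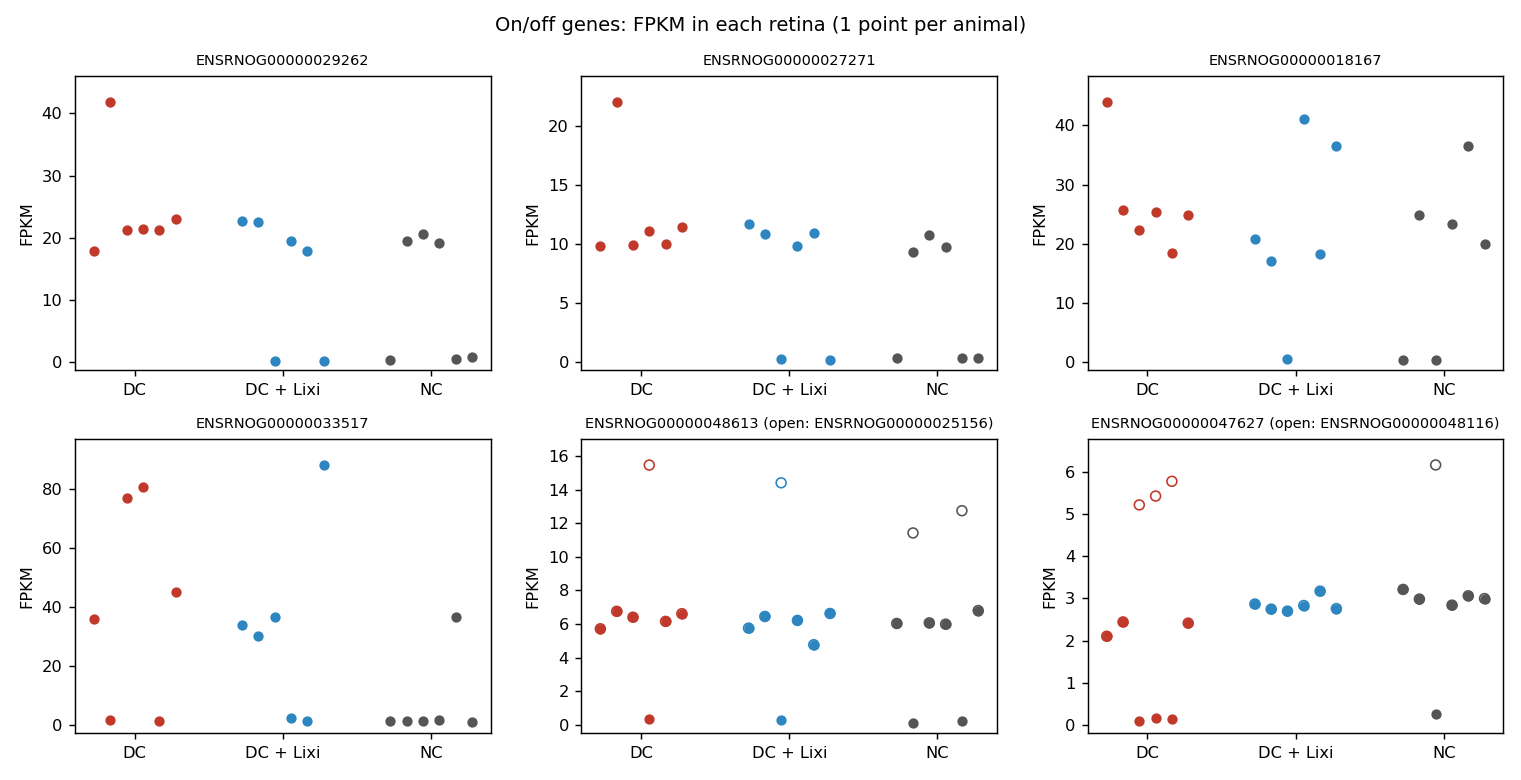
FPKM (y axis) of 6 on/off members in each retina, 1 filled point per animal by group; open circles are the row with which ENSRNOG00000048613 or ENSRNOG00000047627 shares values. Retinae fall on separate levels with empty ranges between them, and where these 2 members are off, at most 0.339 FPKM, the open circle stands at 5.22 FPKM or more.

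The second class were genes that rose and fell together over the NC animals. The 200 members were joined by average linkage on the correlation of log2(FPKM + 1) over the 6 NC libraries, at a correlation of 0.7, which gave 36 clusters. Of these, 7 held at least 10 members and together 84. With 6 animals, high correlations arise easily among so many genes, and the NC correlations are fixed by the clustering. The diabetic libraries were not used for it, and are given for each set, named by its most variable gene. All genes of a set share the same libraries.

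The set led by ENSRNOG00000011986 (12 members) had a shared pattern in both diabetic groups too. The median correlation between its members was 0.95 in DC and 0.78 in DC + Lixi (Spearman's rho 0.77 and 0.71), beside 0.92 in NC, with 6 animals each. ENSRNOG00000011986 itself held 1.24 to 50.0 FPKM in DC, 0.362 to 10.5 FPKM in DC + Lixi and 0.651 to 55.0 FPKM in NC. The high animals were DC 430 at 50.0 FPKM, NC 439 at 55.0 FPKM and NC 431 at 23.0 FPKM, and the lowest of all 18 was DC + Lixi 401. The correlation in DC rested partly on animal 430 but was 0.81 or more whichever DC animal was left out.

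The set led by ENSRNOG00000049770 (10 members) likewise had a median correlation of 0.77 in DC and 0.74 in DC + Lixi (rho 0.77 and 0.83), beside 0.97 in NC. Its leading gene was highest in NC 433 at 19.2 FPKM, followed by DC + Lixi 418 at 10.6 FPKM, NC 438 at 8.16 FPKM, and DC + Lixi 401 and 419 at 6.996 and 6.58 FPKM. The 6 DC animals held only 0.8501 to 3.77 FPKM. For the leading gene, the high animals were thus found in NC and DC + Lixi. Not all members followed it: ENSRNOG00000033979, named after its values were seen, held 5.56 FPKM in DC 425, below NC 433 at 10.15 FPKM but above every DC + Lixi animal.

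The largest set, of 20 members led by ENSRNOG00000014387, split the NC animals. ENSRNOG00000014387 held 41.1, 49.2 and 44.0 FPKM in NC 431, 432 and 433, and 3.40, 5.47 and 12.0 FPKM in NC 437, 438 and 439. In 17 of the 20 members the first 3 of these animals were all above the other 3. The NC animals with high values were those with the lowest RNA concentrations of the series, but DC + Lixi did not show this order. There, animals 388, 401, 418 and 419 were higher for the leading gene, with 745.04, 588.88, 684.64 and 477.28 ng/µl of RNA. Animals 403 and 428 were lower, with 396.96 and 630.88 ng/µl. The part of RNA yield in this pattern was not tested. All DC animals were low for the leading gene, at 2.58 to 3.901 FPKM, a range of 1.51 times. In DC + Lixi, animals 388, 401, 418 and 419 held 18.5, 13.6, 16.9 and 19.8 FPKM and 403 and 428 held 4.35 and 3.01 FPKM. DC + Lixi thus lay at values between the highest NC animals and DC, with 2 animals at the level of DC. The median correlation within the set was 0.24 in DC, 0.70 in DC + Lixi and 0.90 in NC (rho 0.20, 0.43 and 0.89).

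Of the other sets, 2 stood apart in a single NC animal. The set led by ENSRNOG00000014137 (11 members) was high in NC 432 alone. Its leading gene held at most 4.301 FPKM in DC and 7.003 FPKM in DC + Lixi, and in NC 28.2 FPKM in animal 432 and at most 4.53 FPKM in the others. Among the NC animals, the set led by ENSRNOG00000051390 (10 members) was low in 433 alone. Its genes averaged -1.66 there, as log2(FPKM + 1) minus the mean of each gene over all retinae. On that scale the set was also low in DC 430 and 407, at -0.84 and -0.56. Members ENSRNOG00000051390, ENSRNOG00000059489, ENSRNOG00000060581 and ENSRNOG00000047627 have partner rows, so their levels are uncertain. The median correlations outside NC were 0.41 in DC and 0.51 in DC + Lixi for the ENSRNOG00000014137 set, and 0.23 and -0.07 for the ENSRNOG00000051390 set. They were 0.51 and 0.32 for the set led by ENSRNOG00000046615 (11 members), and 0.03 and -0.06 for the set led by ENSRNOG00000052555 (10 members). Pairs of members from different clusters had a median correlation of -0.00043 in DC and 0.0042 in DC + Lixi.

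**Figure D3:**
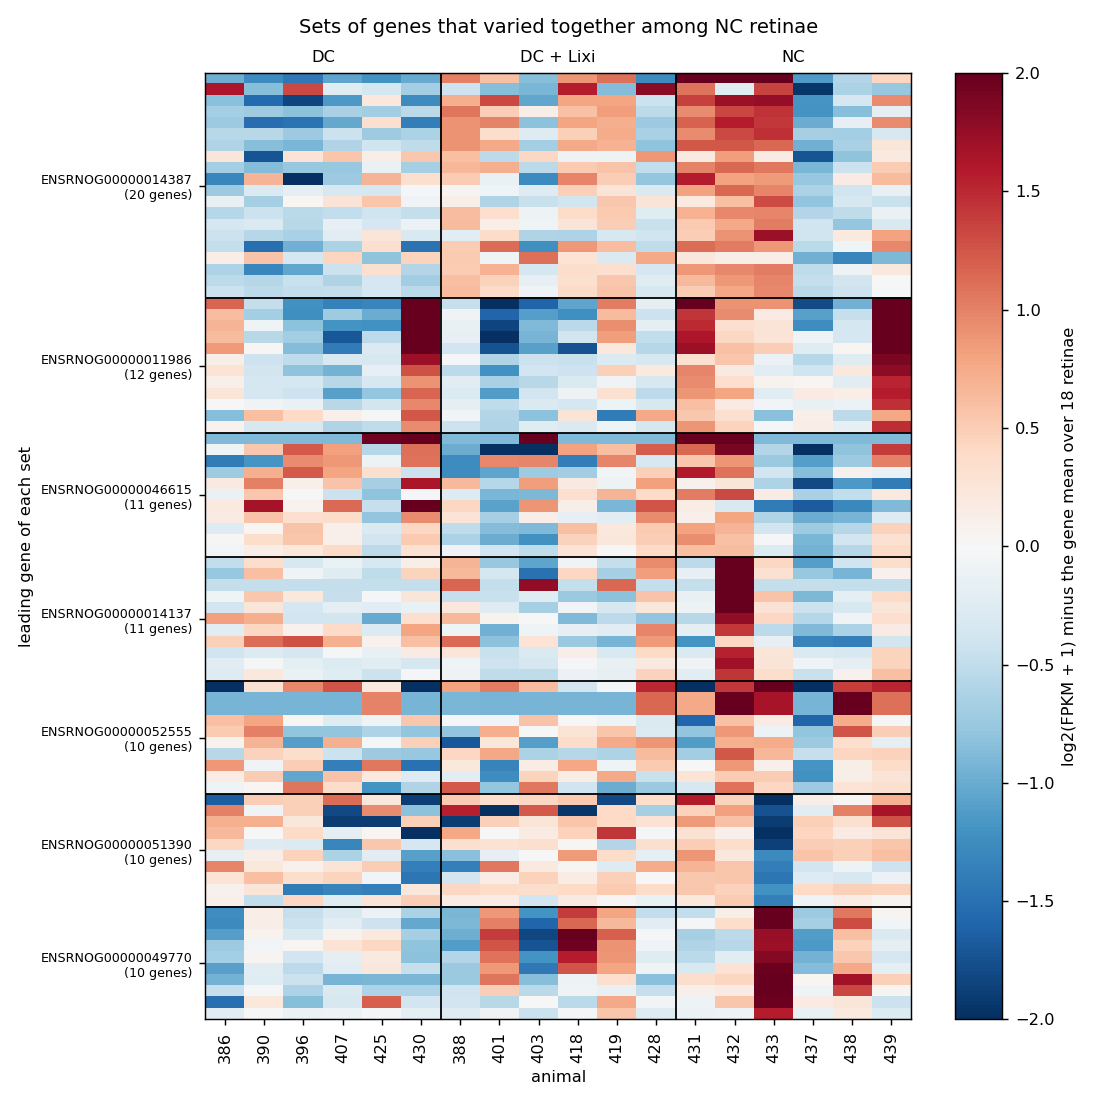
Heat map of log2(FPKM + 1) minus the mean of each gene over 18 retinae (colour scale from -2 to 2), with the 84 members of 7 sets in rows and animals in columns. On average over its genes, the set led by ENSRNOG00000014387 is highest in NC 431, 432 and 433. Its average is below 0 in every DC animal, in DC + Lixi 403 and 428 and in NC 437 and 438, and single members depart from this. The set led by ENSRNOG00000011986 is high in DC 430 and NC 439.

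**Figure D4:**
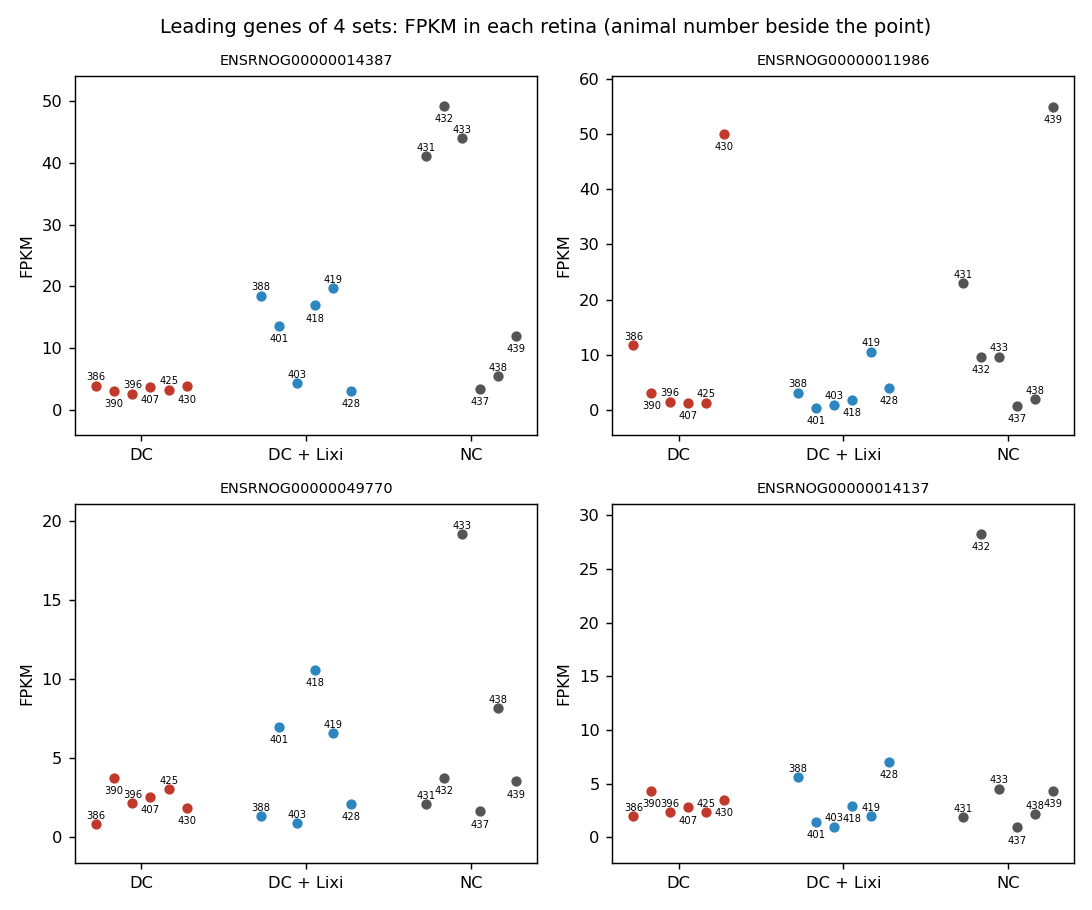
FPKM (y axis) of the leading genes of 4 sets in each retina, with the animal number beside each point. ENSRNOG00000014387 lies at 2.58 to 3.901 FPKM in all 6 DC animals and reaches 49.2 FPKM in NC, and ENSRNOG00000014137 stands out in NC 432 alone at 28.2 FPKM.

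The other genes among the 10 members of largest NC SD also ranged widely in diabetic animals. ENSRNOG00000052555, first in the list with an NC SD of 2.45, held 0.0056 to 20.3 FPKM in DC (median 9.70), 5.91 to 24.6 FPKM in DC + Lixi (median 13.7) and 0.0099 to 35.1 FPKM in NC (median 22.6). It was at or near 0 in DC 386 and 430 and in NC 431 and 437, and the other 14 retinae held at least 5.91 FPKM. ENSRNOG00000034130 (rank 3) held 2.67e-05 to 63.0 FPKM in DC, 0.0011 to 50.4 FPKM in DC + Lixi and 2.8e-08 to 41.3 FPKM in NC. ENSRNOG00000047898 (rank 6) held 0.454 to 26.9 FPKM in DC, 0.1997 to 19.1 FPKM in DC + Lixi and 0.281 to 25.7 FPKM in NC, so the ranges of the groups overlapped. ENSRNOG00000030596 (rank 7) held 0.170 to 34.9 FPKM in DC, 0.161 to 13.1 FPKM in DC + Lixi and 0.0044 to 14.6 FPKM in NC.

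Because the members vary between animals of 1 group, a change with diabetes has to be large to be seen in them. Counts were compared with edgeR's quasi-likelihood test in 1 fit over all 18 libraries, with p-values adjusted over all 16524 genes tested. Of the members, 180 could be tested and 20 did not pass the filter on low counts. The NC values that chose the members enter both comparisons with NC. The median standard error of a member's log2 fold change was 0.60 for DC against NC, against 0.081 over all genes tested. The median size of the log2 fold change was 0.49 for members and 0.12 over all genes, and 43 members (23.9% of those tested) had a fold change of at least 1 in size on the log2 scale, against 2.83% of all genes. Of these 43, 25 did not pass the test.

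In DC against NC 22 members were called (12.2% of those tested), 5 higher and 17 lower, against 16.0% of all genes (9.36% higher and 6.69% lower). The share of members called was thus below that of all genes, while more of them were called lower than higher. The median log2 fold change over members was -0.19, against 0.00 over all genes. The members were chosen on their NC values, which can itself favour this direction, so it is not read as a trait of the members. Of the 17 called lower, 13 belonged to the 20 members of the ENSRNOG00000014387 set, where the log2 fold changes ran from -0.79 to -2.92. That set was built from the NC values that enter this comparison, so its count is no independent support. The counts also depended on the animals. In all, 14 members were called without DC 390, 13 without DC 430, 14 without NC 432 and 12 without NC 433, and in the set 8 without DC 430, 6 without NC 432 and 6 without NC 433. Over all genes these omissions left 10.5%, 8.94%, 11.8% and 13.3% called, in the same order of animals. With limma-voom in place of edgeR 14 members were called, 6 of them in the set, against 15.4% of all genes. When RNA integrity entered edgeR's model as a covariate, 0 members and 0.0% of all genes were called.

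The members named here had the largest fold changes among those called in each direction. ENSRNOG00000014950 held 0 to 0.499 FPKM in DC (median 0.0590), 0.0594 to 1.18 FPKM in DC + Lixi (median 0.281) and 0.455 to 6.01 FPKM in NC (median 0.688), with DC and NC overlapping at their edges. Its log2 fold change in DC against NC was -3.66 (SE 0.89, adjusted p = 0.0114, edgeR). ENSRNOG00000032926 held 0.128 to 0.827 FPKM in DC, 0.197 to 3.56 FPKM in DC + Lixi and 1.22 to 11.6 FPKM in NC. All DC animals lay below all NC animals, and the log2 fold change was -3.54 (SE 0.78, adjusted p = 0.00672, edgeR). These genes belong to the ENSRNOG00000049770 set and are low in abundance.

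ENSRNOG00000047706, the last but 2 in the list, held 6.15 to 52.7 FPKM in DC (median 10.6), 2.49 to 41.2 FPKM in DC + Lixi (median 10.2) and 1.498 to 7.71 FPKM in NC (median 2.28). Apart from NC 438 at 7.71 FPKM, all NC animals were at or below 2.503 FPKM, and all DC animals were above that. Its log2 fold change in DC against NC was 2.73 (SE 0.69, adjusted p = 0.0140, edgeR). In DC + Lixi against NC its log2 fold change was 2.37 (SE 0.68, adjusted p = 0.0765, edgeR), which did not pass. Its level varied more among diabetic animals than among NC animals, with an SD of 1.16 in DC and 1.18 in DC + Lixi, against 0.63 in NC, where it was only just variable enough to be listed.

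ENSRNOG00000009390 held 2.73 to 21.04 FPKM in DC, 1.44 to 11.4 FPKM in DC + Lixi and 0.635 to 4.69 FPKM in NC, so the groups overlapped. Its log2 fold change in DC against NC was 2.24 (SE 0.59, adjusted p = 0.0175, edgeR), and the call ended without DC 430, where the adjusted p (edgeR) was 0.053.

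In DC + Lixi against NC 1 member was called (0.556% of those tested), against 1.54% of all genes. This was ENSRNOG00000049025, named as the only one, which held 21.7 to 94.7 FPKM in DC + Lixi (median 52.0) and 5.63 to 30.8 FPKM in NC (median 19.0), with overlap. Its log2 fold change was 1.56 (SE 0.36, adjusted p = 0.0397, edgeR). In DC it held 24.4 to 48.6 FPKM (median 40.5), and its log2 fold change in DC against NC was 1.09 (SE 0.36, adjusted p = 0.0472, edgeR). Both comparisons share the NC animals, and each call was close to the limit: leaving out a single animal ended the call in DC + Lixi against NC for 11 of the 18 animals, with an adjusted p (edgeR) of up to 0.107, without DC + Lixi 403. In DC against NC it ended the call for 13 of 18, and with RNA integrity as a covariate the log2 fold change was -0.19.

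In DC + Lixi against DC, which uses no NC level, 0 members were called by edgeR, against 0.0% of all genes. At an unadjusted p under 0.05 there were 16 members (8.89% of those tested, against 12.4% of all genes), and the smallest adjusted p among members was 0.221. DESeq2 called 1 member, against 0.700% of all genes, and limma-voom and limma on log2(FPKM + 1) called 0, against 0.0% of all genes. The median log2 fold change over members was 0.12. Over the ENSRNOG00000014387 set it was 0.86, with a smallest adjusted p (edgeR) of 0.221. In that set 19 of 20 members were above 0, against 48.4% of all genes. The genes of the set were joined for varying together and share the same libraries, so this count is 1 pattern and not separate support from each gene.

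**Figure D5:**
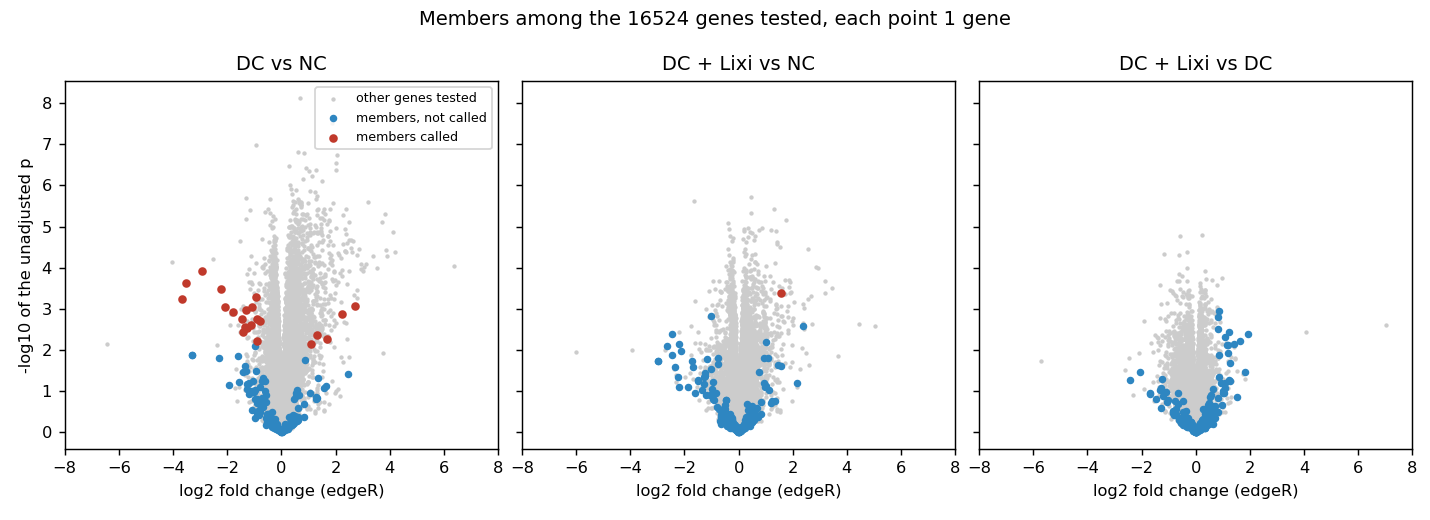
Log2 fold change (x axis) against -log10 of the unadjusted p (y axis) from edgeR for the 3 comparisons, 1 point per gene tested, with members called in red, other members in blue and other genes in grey. Members are spread widely along the x axis but stay low on the y axis: 22 were called in DC against NC, 1 in DC + Lixi against NC and 0 in DC + Lixi against DC.

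The highest value of the 18 was found most often in NC, where the members had been chosen as variable, with 32 members highest in NC 433, 27 in NC 432 and 17 in NC 439. Among diabetic animals DC 430 (14 members) and DC + Lixi 403 (12) came first. Part of the count table holds no value, and this touched the members more than other genes: 23 members (11.5%) had at least 1 cell without a count, against 2.56% of candidates. Of these 33 cells, 22 held the highest FPKM of their gene, and 10 lay in NC 432. All 33 counts were restored from FPKM before the tests.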

How the data were processed

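RNA of 18 retinae, 6 per group, was sequenced as single-end reads. The authors aligned and quantified the reads in Array Studio, and their processing notes name DESeq2. Genome build, annotation and aligner were not given in the sources used here. Each gene has a raw estimated count as deposited and an FPKM value, scaled by the authors to gene length and library size. A deposited sheet lists, for each library, the count of alignments (49487399 to 68360387), the RNA integrity number, which is a score of intactness measured by the authors, the RNA concentration and the ratio of absorbance A260/A280.

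No count is given in 46805 cells of the table, and 4081 of these have FPKM above 0. Counts were restored in 1504 of these from the constant ratio of count to FPKM within a gene. Spread was computed on log2(FPKM + 1). Estimated counts, for which a whole-count test had been planned, were first rounded and then tested in R 4.3.3 with edgeR 4.0.16 (filterByExpr, TMM factors 0.967 to 1.05, quasi-likelihood fit over 18 libraries, 15 residual degrees of freedom), and a call meant an adjusted p (Benjamini-Hochberg) under 0.05. Samples are separate animals, and depth limits precision mainly in members under 20 counts. The steps were tried on simulated data. The simulated counts had the same relative spread beyond counting for every gene. They therefore do not show how the count test behaves for genes as variable as the members.

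The members, lists and tests were chosen with earlier results of these data known. Members to be named were the 10 of largest NC SD, those beside the limit of rank 200, and, without gene names, at most 2 that rose and 2 that fell by fold change in DC against NC, and a member that was the only one called; leading genes of sets and the on/off and paired examples were added after their values were seen. Marker and pathway lists could not be applied without gene names. Alternatives were RLE factors, DESeq2 1.42.0, limma-voom (limma 3.58.1), limma on log2(FPKM + 1) and log2(FPKM + 0.1), no filter, the RNA integrity number in the model, leaving out each library, and other limits of the rule. Missing counts set to 0 and other on/off limits were added after seeing the data.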

Additional observations from a re-analysis of the deposited data

Results flagged for a closer look

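Within each group of 6 animals, the highest or lowest animal was set against the others for the 7 sets and 15 named genes, and in 10 of 66 groups it stood apart from the nearest by more of the group's range than Dixon's critical value at 95% allows. Chance gives this in about 1 group in 20, members were chosen for their spread, and on/off values reach it easily. On the scale of log2(FPKM + 1) minus each gene's mean, the ENSRNOG00000014137 set averaged 1.86 in NC 432, against 0.20 in the nearest NC animal. The ENSRNOG00000051390 set averaged -1.66 in NC 433, against 0.16 in the nearest. The ENSRNOG00000052555 set averaged 0.41 in DC + Lixi 428, against -0.08 in the nearest.

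Single genes are given as log2(FPKM + 1). DC 390 was the highest DC animal for ENSRNOG00000029262 at 5.42 and for ENSRNOG00000027271 at 4.52, against 4.59 and 3.64 in the nearest animal. DC + Lixi 403 was the lowest of its group for ENSRNOG00000018167 at 0.56, against 4.18, and the only one of its group above 0.01 for ENSRNOG00000046615, at 3.21. DC + Lixi 428 was the lowest for ENSRNOG00000047898 at 0.26, against 2.95. NC 431 was the lowest NC animal for ENSRNOG00000034130 at 4.04e-08, against 3.49. NC 438 was the highest NC animal for ENSRNOG00000047706 at 3.12, against 1.81.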

How the results depend on the processing

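In DC against NC (22 members called) the model with RNA integrity called 0 and limma-voom 14, and leaving out each animal gave 12 to 24. In DC + Lixi against NC (1 called) DESeq2 called 5. No filter, the model with RNA integrity, limma-voom and limma on log2(FPKM + 1) or log2(FPKM + 0.1) called 0. Leaving out each animal gave 0 to 3. Members chosen anew gave 2 without NC 431, 433 or 438 and 3 without NC 432, in the fit that called 1.54% of all genes. For the other settings of this comparison the share of all genes is not given, so their counts are not read as results about the members. In DC + Lixi against DC (0 called) DESeq2 called 1. Of the ENSRNOG00000014387 set (13 lower) the model with RNA integrity called 0, limma-voom 6, limma on log2(FPKM + 1) 8 and on log2(FPKM + 0.1) 7, and leaving out each animal gave 6 to 15. The median SD of the members in DC (0.66) was 0.59 to 0.66 without each animal, and in DC + Lixi (0.69) it was 0.65 to 0.73. Other limits of the rule chose the 200 genes anew in NC. The median of such new lists in DC was 1.23 with a pseudocount of 0.1, 0.46 with a minimum of 5 FPKM and 0.25 as the median absolute deviation. In DC + Lixi these were 1.23, 0.51 and 0.33. Of the list chosen by median absolute deviation, 57 genes were among the 200 most variable of DC and 67 among those of DC + Lixi, in place of 102 each. On/off members were 9, in place of 24, when on values had to reach 40% of the highest. Directions turned for ENSRNOG00000049025 in DC against NC with RNA integrity in the model (log2 fold change -0.19), and for ENSRNOG00000047706 in DC + Lixi against DC (-0.35), which was 0.29 without DC 430 and -1.03 to 0.29 without each animal. The cause of these changes was not tested. Of the summary values under the alternatives, 48 moved and 234 did not, and not all of the 48 are listed here. A count moved when it changed by more than a fixed factor. A median SD moved when it changed by at least its jackknife SE, and a median correlation when it changed by at least the SD of its pairs. For the named genes, 37 values lost a call, 3 gained one, 2 turned direction and 345 kept direction and call. No paired analysis was possible because the groups share no replicate numbers. Depth limits the 36 members under 20 counts and the 20 not tested.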
